A study of Mus musculus with 9 samples.

Results

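The genes described here encode subunits of the Polycomb repressive complexes, and there are 10 of them among the 53801 genes of the count table. They were chosen by name, with earlier results of these data known. Ezh1, Ezh2, Eed, Suz12 and Jarid2 belong to Polycomb repressive complex 2 (PRC2), and Bmi1, Ring1, Rnf2, Cbx2 and Pcgf6 to Polycomb repressive complex 1 (PRC1). All 10 were counted in every library and all 10 were among the 22452 genes tested. The libraries are mRNA from cultured mouse spermatogonial stem cells (SSCs), the germline stem cells of the testis, carrying Prmt5 flox/flox and Rosa26-CreERT2. Every library, including those used as the reference, came from cells given 4-hydroxytamoxifen (4OHT) at 1 µM, which activates the Cre and thereby deletes Prmt5. The 4OHT group (3 libraries) was read as cells without a construct, and the study's text mentions no empty vector for them. The MU group (3 libraries) was read as cells overexpressing the catalytically dead PRMT5 (E444Q) from a lentivirus, and the OE group (3 libraries) as cells overexpressing PRMT5 (WT). The labels abbreviate both constructs without spelling them out, so every comparison below rests on that reading. On that reading, effects of a construct and of lentiviral transduction cannot be told apart in the comparisons with 4OHT. Cells without 4OHT were not analysed here, so no value below shows what the deletion itself changed. The study's methods describe feeder cells, in its screen mouse embryonic fibroblasts, for other cultures of mouse SSCs and do not name them for these cells. The sources used here do not say whether the 3 libraries of a group came from separate cultures, so the p-values measure the spread between these libraries, which may be technical.

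PRC2 places methyl groups on lysine 27 of histone H3. Its catalytic subunit is EZH1 or EZH2, EED binds the finished mark and stimulates the enzyme, SUZ12 is the scaffold, and JARID2 is an accessory subunit that helps bring the complex to chromatin. PRC1 places ubiquitin on histone H2A through RING1 or RNF2. Its variants are set by the PCGF subunit: BMI1 belongs to the canonical complex, in which a CBX protein such as CBX2 reads the PRC2 mark, while PCGF6 belongs to the variant called PRC1.6, which is known for keeping germline genes silent in other cells. Polycomb complexes hold developmental regulators such as the Hox genes silent, and in germ cells they are known to be needed to maintain spermatogonia. PRMT5 is an arginine methyltransferase that acts on histones and on splicing proteins.

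The promoters of 3 genes are shown, picked with their values known. Ezh2 and Suz12 differed alike between the groups and held a match to the binding letters of E2F factors, which drive genes of the cell cycle. Rnf2 differed least among the PRC1 genes and held none. Eed, Bmi1, Ring1 and Pcgf6, called higher in both MU and OE below, held none either. Whether the letters bear on the levels was not tested. Each is 280 bases on the gene's strand, 250 before the RefSeq start and 30 from the start onward, from the RefSeq promoter table of GRCm38.p6. They lie at chr6:47595001-47595280 on the minus strand, chr11:79992856-79993135 on the plus strand and chr1:151500962-151501241 on the minus strand. Capitals mark matches to TTTCCCGC, TTTCGCGC, TTTGCCGC or TTTGGCGC.
Ezh2: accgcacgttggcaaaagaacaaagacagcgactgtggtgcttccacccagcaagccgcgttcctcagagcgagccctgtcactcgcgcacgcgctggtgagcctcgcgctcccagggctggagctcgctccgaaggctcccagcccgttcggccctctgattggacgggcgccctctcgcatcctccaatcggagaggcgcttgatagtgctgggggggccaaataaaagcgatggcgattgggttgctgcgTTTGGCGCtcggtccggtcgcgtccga
Suz12: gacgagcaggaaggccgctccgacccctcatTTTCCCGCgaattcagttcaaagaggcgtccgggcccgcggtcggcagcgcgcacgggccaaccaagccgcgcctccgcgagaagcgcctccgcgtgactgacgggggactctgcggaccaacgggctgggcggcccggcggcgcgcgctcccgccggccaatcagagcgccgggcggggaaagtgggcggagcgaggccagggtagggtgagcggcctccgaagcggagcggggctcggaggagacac
Rnf2: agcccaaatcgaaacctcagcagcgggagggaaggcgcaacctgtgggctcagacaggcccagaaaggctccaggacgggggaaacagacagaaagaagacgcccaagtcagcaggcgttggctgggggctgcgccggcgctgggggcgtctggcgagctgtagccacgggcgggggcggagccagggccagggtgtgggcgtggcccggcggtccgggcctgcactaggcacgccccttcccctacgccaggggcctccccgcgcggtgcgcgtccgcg
The match in Ezh2 (TTTGGCGC) lies 3 to 10 bases after the first base of the transcript, and that in Suz12 (TTTCCCGC) at bases -219 to -212 before its start. Of the 9 genes with an entry in the table, which does not list Cbx2, these 2 held a match on either strand, and so did 2.16% of 27025 mouse promoters of the same length. The letters CCAAT, bound by NF-Y, stood in 4 of the 9 (Ezh2, Eed, Suz12 and Jarid2) and in 36.6% of all promoters. The motifs were chosen after the values had been seen, and a match is a description of the letters, not a binding site.

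The count totals were 78751996 to 95370711 in the 4OHT libraries, 192033300 to 365719548 in the MU libraries and 79941857 to 154557863 in the OE libraries. Prmt5 was at 30.3 ± 1.92 CPM (counts scaled by library total after TMM normalization, a scaling of the libraries to a common size; SD, n = 3) with 4OHT alone, 146.1 ± 0.957 CPM in MU and 1076 ± 7.61 CPM in OE, so OE held far more Prmt5 mRNA than MU. All 10 germ cell markers were detected, with a summed level of 1510 to 1550 CPM in the 4OHT libraries, 2140 to 2220 CPM in MU and 2350 to 2390 CPM in OE. Of these markers Gfra1, Zbtb16 and Nanos3 were lower in both construct groups and 6 were higher. The summed level of 10 fibroblast markers ran the other way, at 7100 to 8520, 3810 to 3850 and 2900 to 2990 CPM, and that of 10 macrophage markers rose from 170 to 186 through 1140 to 1170 to 2210 to 2340 CPM. No gene of either list was at 0. Of 6 Sertoli cell markers, 3 were below 1 CPM throughout, among them Fshr at 0 in every library. Sox9 had means of 16.24, 6.814 and 6.047 CPM in 4OHT, MU and OE, and Wt1 of 4.841, 7.005 and 6.739 CPM. The summed level of 11 proliferation genes was 1810 to 1970, 2460 to 2500 and 2640 to 2670 CPM. These sums moved with the groups compared below, and their part in those results was not tested. In bulk RNA, fewer cells of a type and less RNA per cell cannot be told apart. By a chi-square of counts between replicates, the third 4OHT library stood farthest from the others of its group (18.6 and 13.0 per gene, and 3.3 to 6.16 in all other pairs), whereas by the number of genes more than 2-fold from both replicates it did not (5.05% of genes tested, and 1.88% to 6.9% in the other libraries). Without it, 9 of the Polycomb genes described next passed in each comparison with 4OHT, and the values that it moved are given beside them.

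Most Polycomb genes were higher in both construct groups than with 4OHT alone. In MU 7 of the 10 were higher and none was lower by edgeR's quasi-likelihood test (adjusted p under 0.05, Benjamini-Hochberg over all genes tested), namely Ezh2, Eed, Suz12, Bmi1, Ring1, Cbx2 and Pcgf6. The same test called 29.5% of all genes higher and 26.5% lower in MU. In OE 9 of the 10 were higher and none was lower, with Ezh1 and Jarid2 added and Rnf2 alone not called, against 29.9% of all genes higher and 27.9% lower. The median log2 fold change of the 10 genes was 0.45 in MU and 0.48 in OE, where that of all genes tested was 0.04 and 0.02. All libraries of the construct group lay above all 4OHT libraries for 7 of the 10 genes in MU and 9 in OE. The same was so for 7585 and 7080 of the 22452 genes tested, and 6755 and 6747 lay wholly below. Both comparisons share the 4OHT libraries, so each gene's values are given side by side.

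**Figure D1:**
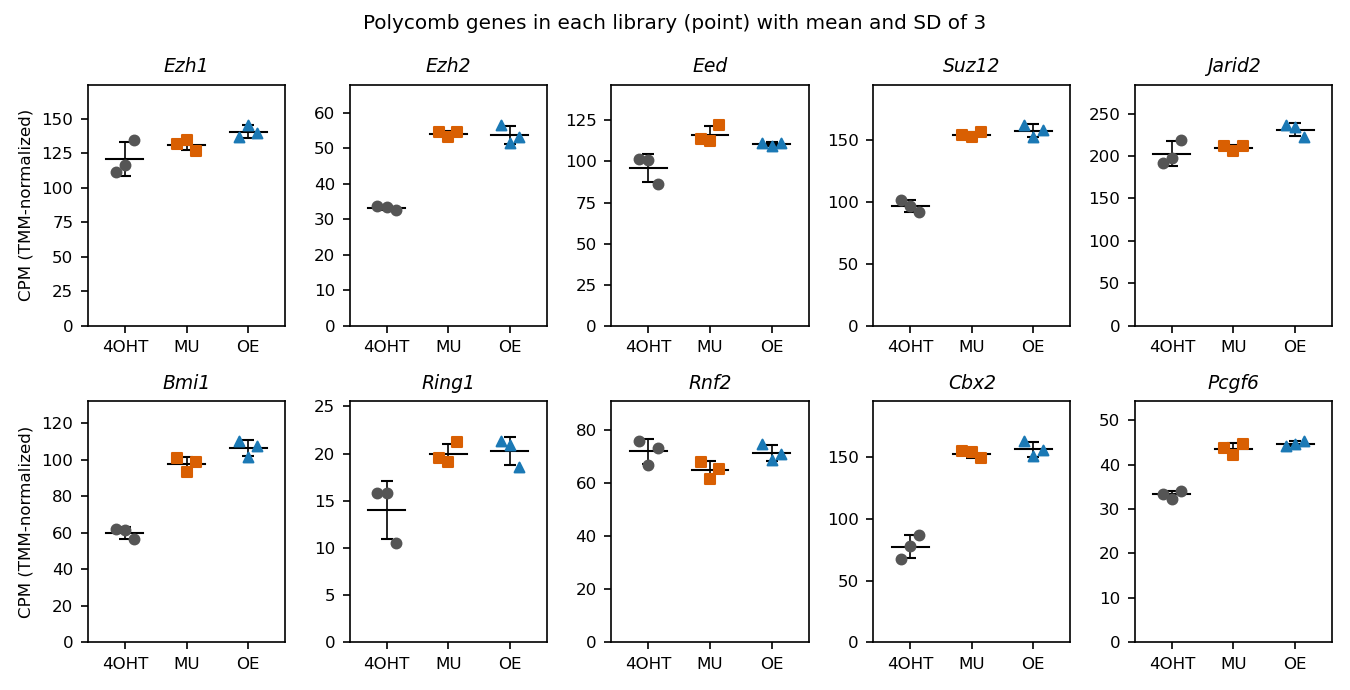
Each panel plots a Polycomb gene as CPM (vertical axis from 0, a scale of its own in each panel) in the 4OHT, MU and OE groups. Points are libraries, and the horizontal line and bar are the mean and SD of 3. For Ezh2, Suz12, Bmi1, Cbx2 and Pcgf6 all 4OHT libraries sit well below the MU and OE libraries, whereas those of Ezh1, Jarid2 and Rnf2 overlap MU.

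Among the catalytic subunits of PRC2, Ezh2 was higher in the construct groups and Ezh1 differed less. Ezh2 (ENSMUSG00000029687, GRCm38 chromosome 6, 47530139 to 47595341, minus strand) was at 33.6, 33.3 and 32.5 CPM in the 4OHT libraries, 54.6, 53.0 and 54.4 CPM in the MU libraries and 56.6, 51.5 and 53.1 CPM in the OE libraries. The 4OHT libraries lay close together, far below the lowest construct library. The log2 fold change against 4OHT was 0.70 in MU (1.63-fold, standard error 0.053, edgeR adjusted p = 6.72e-08) and 0.70 in OE (1.62-fold, standard error 0.054, adjusted p = 6.97e-08). Ezh1 (ENSMUSG00000006920, chromosome 11, 101191115 to 101226463, minus strand) was at 111.7, 116.4 and 135.0 CPM with 4OHT alone, 132.1, 134.8 and 126.9 CPM in MU and 137.1, 145.8 and 139.5 CPM in OE. The third 4OHT library lay above all 3 MU libraries and below all OE libraries. Its log2 fold change was 0.12 in MU (95% interval -0.02 to 0.26, edgeR adjusted p = 0.143) and 0.22 in OE (1.16-fold, adjusted p = 0.0104). Without the third 4OHT library the change in MU was 0.20 and passed the test (adjusted p = 0.00162), and without the first 4OHT library that in OE was 0.15 and did not (adjusted p = 0.0612).

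The ratio of Ezh2 to Ezh1, in CPM per kilobase of exon and as the geometric mean of 3 libraries, was 0.306 with 4OHT alone, 0.459 in MU and 0.425 in OE. Every library of a construct group exceeded every 4OHT library in this ratio. The difference in log2 ratio was 0.58 for MU and 0.47 for OE, each with an exact two-sided permutation p of 0.1 (adjusted 0.15 over 12 tests of 4 ratios), the smallest that 3 against 3 allows.

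The other core subunits, Eed and Suz12, were both called higher in both construct groups, Suz12 by the larger amount. Suz12 (ENSMUSG00000017548, chromosome 11, 79993106 to 80034123, plus strand) was at 101.4, 97.1 and 91.9 CPM with 4OHT alone, 154.3, 152.1 and 156.2 CPM in MU and 162.3, 152.3 and 158.2 CPM in OE. The construct libraries all lay above the 4OHT libraries, by more than the spread within any group. The log2 fold change was 0.67 in MU (1.59-fold, standard error 0.049, edgeR adjusted p = 4.85e-08) and 0.70 in OE (1.63-fold, standard error 0.049, adjusted p = 2.69e-08). Eed (ENSMUSG00000030619, chromosome 7, 89954654 to 89980983, minus strand) was at 101.5, 100.9 and 86.5 CPM with 4OHT alone, 113.5, 112.3 and 122.3 CPM in MU and 111.4, 109.2 and 111.2 CPM in OE. The groups did not overlap, though the gap between the highest 4OHT and the lowest OE library was smaller than the range within 4OHT. Its log2 fold change was 0.27 in MU (1.21-fold, edgeR adjusted p = 0.00203) and 0.20 in OE (1.15-fold, adjusted p = 0.0136), and the change in OE did not pass without the third OE library (0.18, adjusted p = 0.057). Without the third 4OHT library it was 0.12 and passed (adjusted p = 0.0407).

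Jarid2, the accessory subunit (ENSMUSG00000038518, chromosome 13, 44729474 to 44921643, plus strand), was at 191.4, 198.1 and 219.2 CPM with 4OHT alone, 212.2, 206.0 and 211.5 CPM in MU and 236.8, 233.6 and 222.8 CPM in OE. The MU libraries fell inside the range of the 4OHT libraries, and the OE libraries lay above it. Its log2 fold change was 0.05 in MU (95% interval -0.07 to 0.17, edgeR adjusted p = 0.471) and 0.19 in OE (1.14-fold, adjusted p = 0.00879). In MU it was -0.004 without the first 4OHT library and 0.10 without the third, where it passed the test (adjusted p = 0.0378).

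Of the ubiquitin ligases of PRC1, Ring1 was higher in the construct groups and Rnf2 was not. Ring1 (ENSMUSG00000024325, chromosome 17, 34020792 to 34024680, minus strand), the lowest of the 10 genes per exon length, was at 15.8, 15.8 and 10.5 CPM with 4OHT alone, 19.5, 19.1 and 21.2 CPM in MU and 21.3, 20.9 and 18.6 CPM in OE. The 4OHT libraries lay below all MU and OE libraries, which overlapped each other, and the third 4OHT library, with 943 counts, was the lowest of all. The log2 fold change was 0.51 in MU (1.42-fold, standard error 0.13, edgeR adjusted p = 0.0038) and 0.53 in OE (1.44-fold, standard error 0.13, adjusted p = 0.00294). Without that library these were 0.33 and 0.35, and both passed (adjusted p = 0.0033 and 0.00239). Rnf2 (ENSMUSG00000026484, chromosome 1, 151458004 to 151500955, minus strand) was at 75.7, 66.6 and 73.3 CPM with 4OHT alone, 68.1, 61.5 and 65.4 CPM in MU and 74.5, 68.7 and 70.8 CPM in OE. The OE libraries lay within the 4OHT range and 2 of the 3 MU libraries below it. Its log2 fold change was -0.15 in MU (95% interval -0.28 to -0.01, edgeR adjusted p = 0.0565) and -0.01 in OE (95% interval -0.14 to 0.12, adjusted p = 0.890). The value in MU passed as lower without the second 4OHT library (-0.19, adjusted p = 0.0215) and under DESeq2 (adjusted p = 0.0413), with DESeq2 size factors in edgeR (adjusted p = 0.026) and with counts divided by 4 (adjusted p = 0.0154), and with a replicate block, whose value is given with the alternatives.

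The ratio of Rnf2 to Ring1, likewise in CPM per kilobase of exon, was 4.09 with 4OHT alone, 2.56 in MU and 2.77 in OE. All 3 libraries of each construct group were below all 4OHT libraries (exact two-sided permutation p = 0.1 for each, adjusted 0.15). The log2 difference was -0.67 in MU and -0.56 in OE. The third 4OHT library enters both differences, and without it that in OE was -0.35.

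Cbx2 and Bmi1, of the canonical complex, had the largest changes of the PRC1 genes. Cbx2 (ENSMUSG00000025577, chromosome 11, 119022962 to 119031270, plus strand) was at 67.9, 78.5 and 86.8 CPM with 4OHT alone, 155.3, 154.3 and 149.4 CPM in MU and 163.1, 151.1 and 155.8 CPM in OE. The gap between the highest 4OHT library and the lowest construct library was larger than the whole range within any group. The log2 fold change was 0.98 in MU (1.97-fold, standard error 0.073, edgeR adjusted p = 5.74e-08) and 1.01 in OE (2.01-fold, standard error 0.073, adjusted p = 3.6e-08), the largest of the 10 genes in each comparison. Among all genes tested, these stood at percentile 87.4 and 88.2. Bmi1 (ENSMUSG00000026739, chromosome 2, 18677018 to 18686629, plus strand) was at 62.2, 61.5 and 56.3 CPM with 4OHT alone, 101.0, 93.3 and 98.6 CPM in MU and 110.0, 101.2 and 107.5 CPM in OE. Every OE library exceeded every MU library by a little, and both groups were far above 4OHT alone. Its log2 fold change was 0.70 in MU (1.63-fold, standard error 0.056, edgeR adjusted p = 1.05e-07) and 0.82 in OE (1.77-fold, standard error 0.056, adjusted p = 1.87e-08).

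Pcgf6, the defining subunit of PRC1.6 (ENSMUSG00000025050, chromosome 19, 47033617 to 47050906, minus strand), was at 33.4, 32.4 and 34.1 CPM with 4OHT alone, 43.8, 42.3 and 44.7 CPM in MU and 44.2, 44.6 and 45.3 CPM in OE. The replicates lay close together and the 4OHT libraries were separate from the rest. The log2 fold change was 0.39 in MU (1.31-fold, standard error 0.052, edgeR adjusted p = 1.94e-05) and 0.42 in OE (1.34-fold, standard error 0.052, adjusted p = 8.17e-06). The ratio of Pcgf6 to Bmi1 in CPM per kilobase of exon was 0.439 with 4OHT alone, 0.353 in MU and 0.333 in OE, without overlap between 4OHT and either construct group (exact two-sided permutation p = 0.1 for each, adjusted 0.15). The ratio of Bmi1 to Pcgf2, its closest paralog, on the same scale was 1.37, 2.24 and 2.38 in the same order, again without overlap (exact two-sided permutation p = 0.1 for each, adjusted 0.15). Pcgf2 itself was at 36.5, 38.0 and 41.9 CPM with 4OHT alone, and its log2 fold change was -0.01 in MU (edgeR adjusted p = 0.935) and 0.03 in OE (adjusted p = 0.751).

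The counting is not stated to have used strand. Exons of a gene on the opposite strand cover 2.6% of the exonic bases of Ezh2, 6.8% of those of Eed, 3.6% of those of Suz12 and 3.8% of those of Rnf2, and reads from these stretches cannot be told apart. The scaling also sets the level of all genes. Scaled by total counts without TMM, the median of all genes moved by 0.112 (log2) in MU against 4OHT and by 0.088 in OE against 4OHT, and 9 of the 10 genes were then called higher in MU, with Ezh1 at 0.23 and Jarid2 at 0.16.

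**Figure D2:**
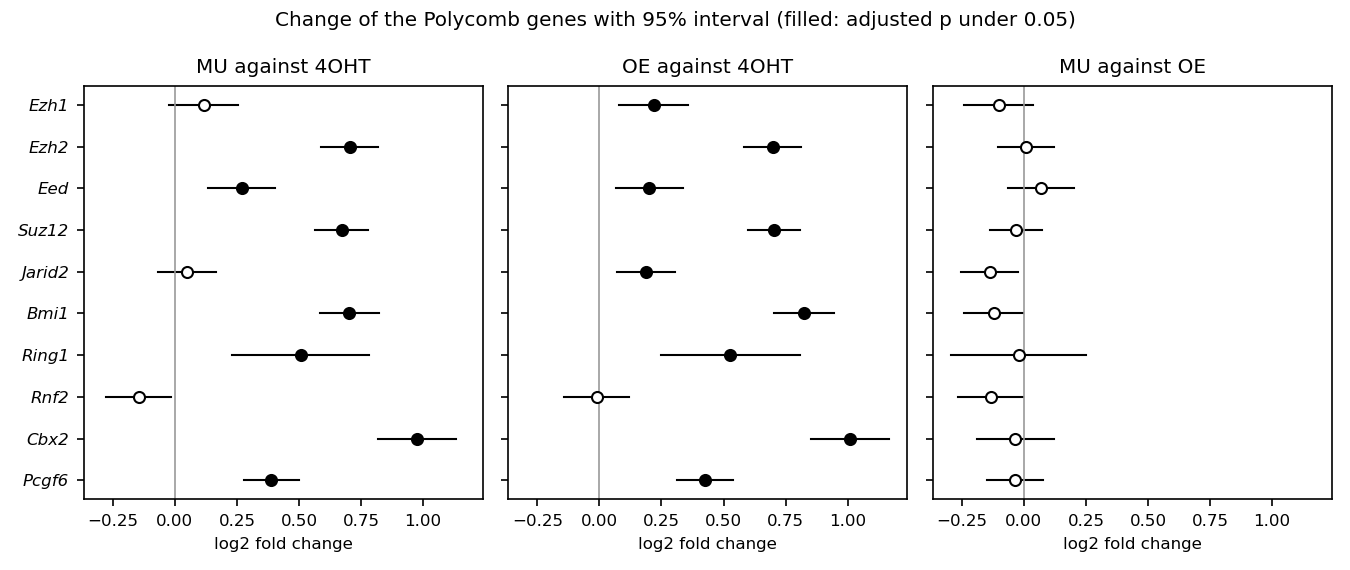
Points are log2 fold changes of the 10 Polycomb genes (horizontal axis) in MU against 4OHT, OE against 4OHT and MU against OE, bars are 95% intervals of the edgeR fit, and filled points passed the test. Filled points reach 0.98 for Cbx2 in MU and 1.01 in OE, Rnf2 lies at or below 0 in all panels, and no point is filled between MU and OE.

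The comparison of MU with OE sets the catalytically dead protein against the wild-type protein. The groups also differed in Prmt5 mRNA (146.1 CPM in MU and 1076 CPM in OE) and in the fibroblast and macrophage marker sums. The parts of activity, construct level and cell mixture in this comparison cannot be told apart. No Polycomb gene passed edgeR's test in either direction, where 2.12% of all genes were called higher and 1.06% lower in MU. At an unadjusted p under 0.05 there were 3, Jarid2, Bmi1 and Rnf2, where 2791 of all 22452 genes tested were under that cut. DESeq2 also called none. Jarid2 had a log2 fold change of -0.14 (95% interval -0.26 to -0.02, edgeR adjusted p = 0.280), Rnf2 of -0.13 (-0.27 to -0.004, adjusted p = 0.381) and Bmi1 of -0.12 (-0.24 to -0.003, adjusted p = 0.382). Jarid2 alone passed when the fit held only the 6 libraries compared (adjusted p = 0.0178) and when the third 4OHT library was left out (adjusted p = 0.0394). For Ezh2 the interval of the difference was -0.11 to 0.12, for Suz12 -0.14 to 0.07 and for Pcgf6 -0.15 to 0.07. The intervals of Cbx2 (-0.19 to 0.12), Eed (-0.07 to 0.20) and Ezh1 (-0.24 to 0.04) were wider, and that of Ring1 was the widest (-0.29 to 0.25). The MU libraries of Ezh1, Jarid2, Bmi1 and Rnf2 all lay below the OE libraries, and those of Eed all above, which was so for 12.8% and 13.0% of all genes.

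Levels were compared between the 10 genes per kilobase of exon, with the exons of all annotated transcripts of a gene pooled. With 4OHT alone Eed was highest at 25.2 CPM per kb and Jarid2, Suz12, Cbx2, Rnf2, Ezh1 and Bmi1 followed from 20.9 down to 15.1 CPM per kb, each overlapping the next. Pcgf6 (6.62), Ezh2 (4.96) and Ring1 (4.33) formed the low end in CPM per kb, the last pair overlapping. In both construct groups Cbx2 came first, at 35.9 CPM per kb in MU and 36.8 in OE, with Suz12 (31.2 and 31.9) and Eed (30.3 and 28.9) next and Ring1 last (6.15 and 6.24). Only Suz12 and Eed overlapped among neighbours in MU, and none did in OE. The order depends on the length used. Per kilobase of the longest transcript, an alternative added after the data were seen, Eed led in all groups (46.5, 56.1 and 53.4 CPM per kb in 4OHT, MU and OE), and Ezh2 stood at 11.9, 19.4 and 19.3 CPM per kb, level with or above Pcgf6 (11.8, 15.4 and 15.8), while Ring1 remained last (5.51, 7.82 and 7.94).

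**Figure D3:**
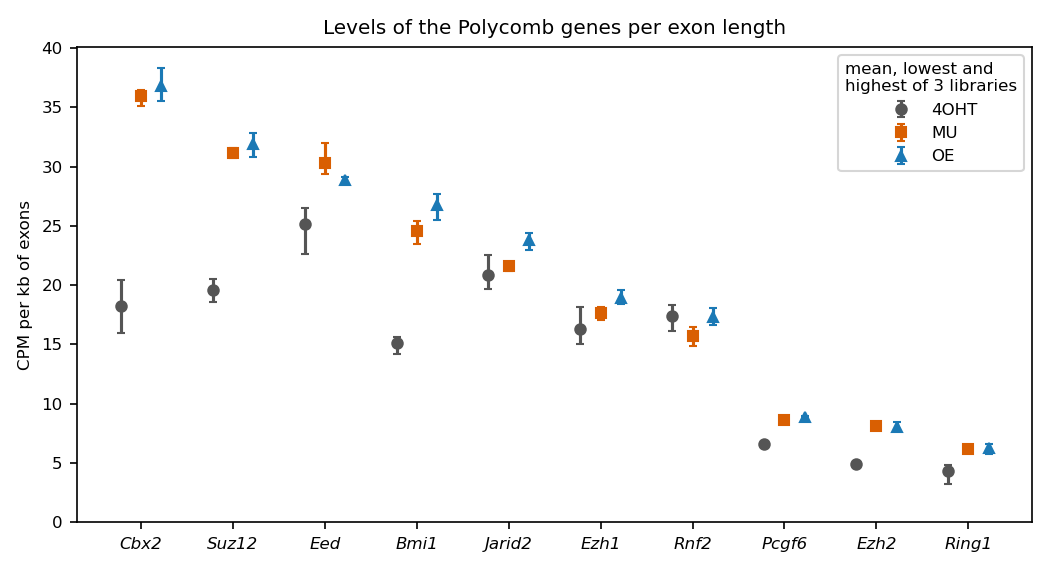
The vertical axis is the level in CPM per kb of exons (from 0) for each Polycomb gene in the 4OHT, MU and OE groups, with the mean as a symbol and the lowest and highest of 3 libraries as bars. Cbx2 moves from 18.3 CPM per kb with 4OHT alone to 35.9 in MU and 36.8 in OE, and Pcgf6, Ezh2 and Ring1 are the lowest in every group.

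Likeness of profile was measured as the Euclidean distance between log2 CPM values over the 9 libraries, each gene centred on its mean, among 47 other Polycomb genes, partners included. The nearest gene to Ezh2 was Suz12 and the reverse (distance 0.094), and Ezh1 and Jarid2 were likewise nearest to each other (0.165). Pcgf6 lay nearest to Usp7 (0.093), Eed to Pcgf1 (0.139), Bmi1 to Mtf2 (0.142) and Rnf2 to Tfdp1 (0.229). The profiles of Cbx2 (nearest Mga, 0.306) and Ring1 (nearest Cbx3, 0.435) had no close neighbour by this measure. These distances describe profiles that share libraries and the difference between 4OHT and the construct groups.

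Of 39 further genes listed as Polycomb partners, 38 were tested. In MU against 4OHT 15 were higher and 10 lower, with a median log2 fold change of 0.09. In OE against 4OHT 16 were higher and 8 lower, with a median of 0.15. Of all genes tested, 29.5% were called higher and 26.5% lower in MU, and 29.9% and 27.9% in OE. The counts of each list below stand beside these same shares. The partners of variant PRC1 were called higher most often, 10 of 19 in each comparison with 5 lower. PRC2 partners had 2 higher and 1 lower of 8 in MU and 3 higher and 1 lower in OE, and canonical PRC1 partners 3 higher and 4 lower of 11 in MU and 3 and 2 in OE. Mga, the DNA-binding scaffold of PRC1.6, had the largest change among those higher, from 258.4, 242.8 and 258.3 CPM with 4OHT alone to 474.3, 470.4 and 485.4 CPM in MU (log2 fold change 0.91, standard error 0.048, edgeR adjusted p = 1.61e-09) and 506.0, 471.2 and 468.4 CPM in OE (0.93, adjusted p = 1.11e-09). Scml2, a germline partner of PRC1, was next with 0.87 in MU and 0.88 in OE, followed by Pcgf5 at 0.78 in both and Bcorl1 at 0.65 and 0.78.

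The partners that were lower included paralogs of those that were higher. Cbx6, a paralog of Cbx2, was at 119.7, 136.5 and 129.1 CPM with 4OHT alone, 66.8, 75.3 and 71.1 CPM in MU and 63.2, 60.2 and 57.0 CPM in OE. Its log2 fold change was -0.85 in MU (edgeR adjusted p = 5.22e-08) and -1.10 in OE (adjusted p = 3.99e-09), so Cbx6 and Cbx2 moved in opposite directions. Cbx8 (0.43 in MU and 0.48 in OE) and Cbx7 (0.23 and 0.24), also chromobox paralogs, were called higher. Bcor was lower (-0.74 and -0.70) where Bcorl1 was higher. Phc2, a polyhomeotic subunit, was lower at -0.83 and -0.76, and Phf1, a PRC2 accessory subunit, at -0.53 and -0.74. No partner passed between MU and OE by edgeR, and DESeq2 called 2. At an unadjusted p under 0.05 there were 7 partners, where 2791 of all 22452 genes tested were under that cut.

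**Figure D4:**
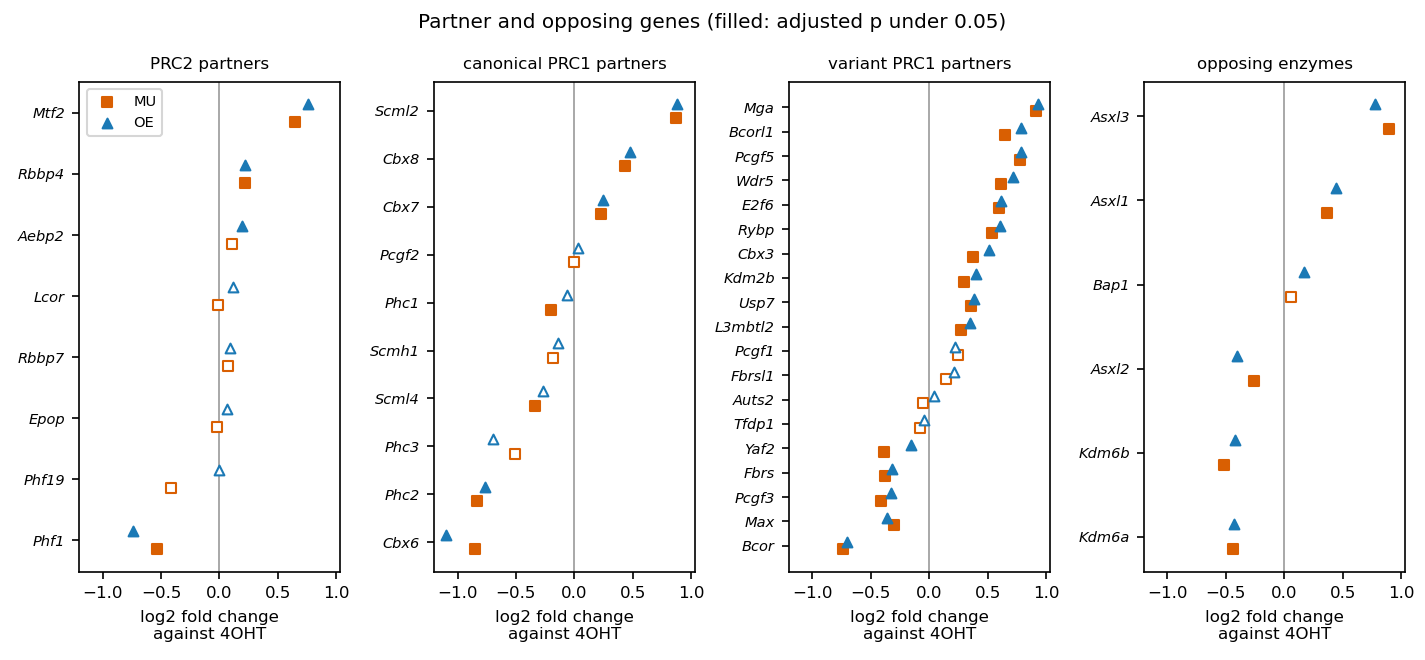
Each panel gives the log2 fold change against 4OHT (horizontal axis) of the genes of a partner list or of the opposing enzymes, for MU (squares) and OE (triangles), filled where the adjusted p was under 0.05. Mga, Scml2, Pcgf5 and Bcorl1 lie to the right, and Cbx6, Phc2, Bcor and Phf1 to the left, in both groups.

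The enzymes that remove the Polycomb marks differed in both directions. Kdm6a and Kdm6b, the demethylases of lysine 27, were lower in both construct groups, at -0.44 and -0.52 (log2 fold change) in MU and -0.43 and -0.42 in OE. Bap1, which removes ubiquitin from H2A, was at 0.06 in MU (edgeR adjusted p = 0.373) and was called higher in OE (0.17, adjusted p = 0.0179). Of its partners, Asxl1 (0.37 and 0.44) and Asxl3 (0.89 and 0.77) were higher and Asxl2 (-0.26 and -0.41) was lower. Between MU and OE none of the 6 passed by edgeR, with 0 at an unadjusted p under 0.05 and none called by DESeq2.

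Genes that Polycomb complexes are known to hold silent did not move in a single direction. Of 38 Hox genes tested, 7 were higher and 23 lower in MU than with 4OHT alone and 5 were higher and 24 lower in OE, with medians of -1.06 and -1.44. All 9 genes of the Hoxc cluster were lower in both, whereas 5 of 10 of the Hoxb cluster were higher and 3 lower in MU and 4 higher and 3 lower in OE. Hoxb8 was higher, from 36.4, 40.8 and 36.5 CPM with 4OHT alone to 56.9, 53.0 and 54.3 CPM in MU and 54.7, 59.7 and 61.1 CPM in OE, and so were Hoxb1 and Hoxd1, the latter from 14, 4 and 8 counts with 4OHT alone. Among those lower with the largest changes were Hoxc5 (-2.61), Hoxd9 (-2.29) and Hoxa10 (-2.06) in MU and Hoxa5 (-2.77), Hoxc4 (-2.57) and Hoxd9 (-2.22) in OE. Hoxa5, Hoxc10 and Hoxc4 were higher in MU than in OE (0.76, 0.71 and 0.61). The number of Hox genes called was 1 without the first or the second library of MU or of OE, and 5 without the third OE library. The fibroblast markers moved the same way as these Hox genes, since 9 of 10 were lower in MU and 10 of 10 in OE than with 4OHT alone, and all 10 were higher in MU than in OE. Their part in the Hox values was not tested.

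Other developmental regulators were likewise lower more often than higher, 11 lower and 3 higher of 25 tested in MU and 10 and 3 in OE. Cdkn2b, a cell cycle inhibitor and a classical Polycomb target, was at 113.6, 128.7 and 127.9 CPM with 4OHT alone, 25.6, 24.6 and 23.8 CPM in MU and 19.6, 22.1 and 20.8 CPM in OE (log2 fold change -2.32 and -2.57, edgeR adjusted p = 5.75e-12 and 1.94e-12). Its neighbour Cdkn2a, the gene through which Bmi1 is best known, was named after its values were seen and was at 211.0, 231.2 and 178.0 CPM with 4OHT alone, 78.1, 82.6 and 75.9 CPM in MU and 74.6, 72.7 and 69.3 CPM in OE. Bmi1 and Cbx2 were high in the groups where both inhibitors were low, as were the proliferation genes, and the fibroblast markers were low there too. Whether any of these differences are linked was not tested. Tbx5 (-2.02 and -2.19) and Gata6 (-2.002 and -2.83) were also lower, and Lhx2 (1.26 and 1.42), Msx2 (0.63 and 0.67) and Gata4 (0.40 and 0.64) were higher. Gata6 alone differed between MU and OE (0.83, edgeR adjusted p = 0.0382), and no gene of the list did so without the second or the third MU library or any of the OE libraries.

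The germline genes that PRC1.6 silences in other cells were all higher in the construct groups, 13 of 13 in each comparison, with medians of 0.98 in MU and 1.07 in OE. Sycp3, of the synaptonemal complex, was at 39.3, 39.5 and 28.1 CPM with 4OHT alone, 101.6, 93.9 and 97.4 CPM in MU and 103.6, 107.5 and 104.5 CPM in OE (log2 fold change 1.46 and 1.56). Stk31 (1.37 and 1.50) and Taf7l (1.20 and 1.31) followed. Of the complex itself, Pcgf6, Mga, E2f6 and Ring1 were higher in the same groups. So were L3mbtl2 (0.27 and 0.35), Cbx3 (0.375 and 0.507), Wdr5 (0.61 and 0.71) and Rybp (0.54 and 0.60). Max (-0.30 and -0.36) and Yaf2 (-0.39 and -0.16) were lower, and Rnf2 and Tfdp1 were not called. In these groups the germ cell markers, 2 of which (Ddx4 and Tex101) are also on this list, had the higher sum. Between MU and OE, Slc25a31 alone was called, lower in MU (-0.26, edgeR adjusted p = 0.0163), a call that was lost when any MU library or the second or the third OE library was left out, and the other 12 also had negative log2 fold changes without passing.

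**Figure D5:**
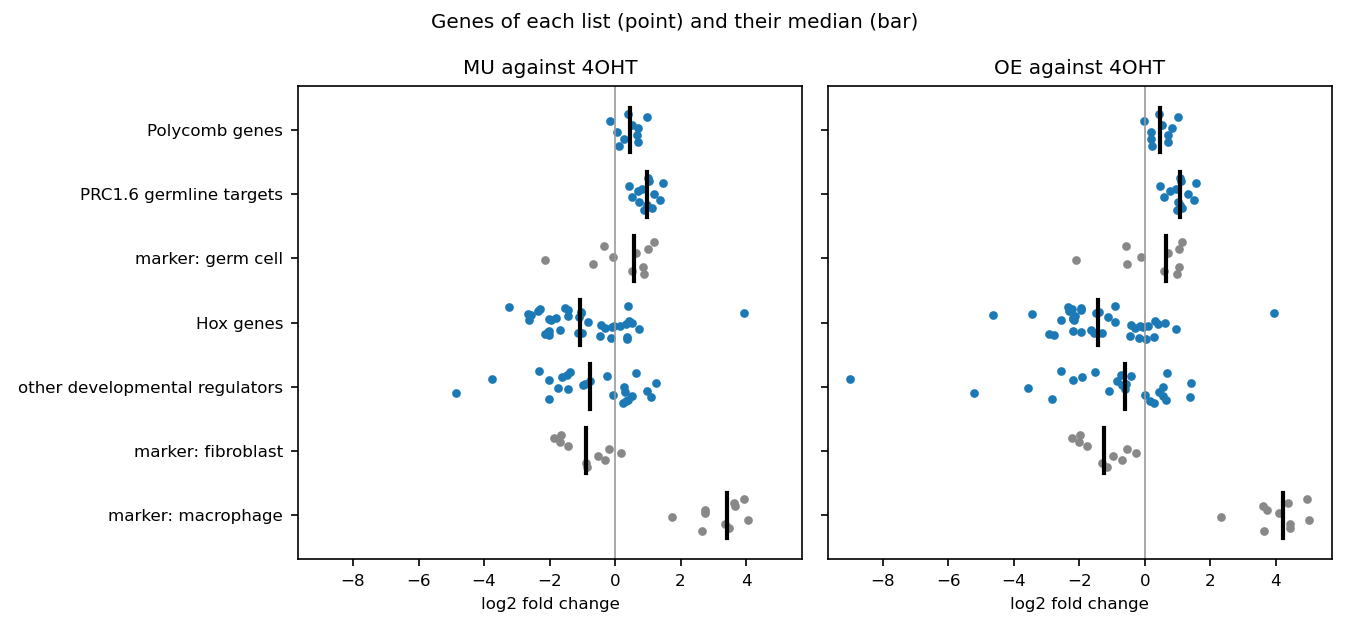
Points are the log2 fold changes (horizontal axis) of the tested genes of each list in MU against 4OHT and in OE against 4OHT, black bars are the medians, and grey rows are cell type markers. The Polycomb genes centre on 0.45 and 0.48 and the germline targets on 0.98 and 1.07, while the Hox genes centre on -1.06 and -1.44 and range on both sides of 0. The points farthest to the left are genes with very few counts in the construct group, whose fitted change depends on the prior count.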

How the data were processed

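The file the authors deposited holds raw counts (whole numbers) for 53801 genes and 9 libraries. Per the submitters' processing notes and the study's methods, paired reads were trimmed (BBmap, Trimmomatic 0.39), aligned to GRCm38 with HISAT2 2.2.1 and quantified with StringTie 2.2.1. How the whole numbers arose, whether strand was used and how reads with several alignments were counted are not given in the sources used here. A read pair may give several counts (4 in an alternative), so totals need not be fragments.

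Groups came from the sample labels. Genes were filtered by filterByExpr of edgeR 4.0.16 (R 4.3.3; minimum count 10, minimum total count 15), which left 22452, scaled by TMM and fitted with a quasi-likelihood negative binomial model with group as its only factor on all 9 libraries. P-values were adjusted by Benjamini-Hochberg over all genes tested, with a threshold of 0.05, and intervals are 95%. The common biological coefficient of variation was 0.155. The steps were tested on simulated data. Alternatives were other scalings, no filter, a replicate block, counts divided by 4, removal of a length trend, only the 6 libraries compared, DESeq2 1.42.0 and the omission of each library. Ratios of paralogs were tested by exact permutation. Coordinates, lengths and overlaps came from GENCODE vM21, which holds 53706 of the identifiers. Promoters came from the RefSeq table.

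A floor of 3 counts corresponds to 0.00792 to 0.0395 CPM and covers counting error only. The Polycomb genes and all lists were chosen with earlier results of these data known. Beside the 10 genes, Prmt5, the paralogs and the nearest genes by profile, the text names from each list the 3 genes higher and the 3 lower with the largest log2 fold change in each comparison, taken from those called and averaging 1 CPM or more, and other genes were named after their values were seen. Of the partners, Ezhip was not analysed here. The values of 1 further partner are not reported here, though it is part of the counts.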

Additional observations from a re-analysis of the deposited data

How the results depend on the processing

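Of 540 recomputed log2 fold changes of the 10 Polycomb genes (18 alternatives for each of 30 values), 505 kept their direction and side of the threshold, 16 newly passed, 2 no longer passed and 17 turned sign. Ezh2, Suz12, Bmi1, Ring1, Cbx2 and Pcgf6 passed against 4OHT in both construct groups under all 18 alternatives, as did Eed in MU and Jarid2 in OE. All values that turned lay near 0 and had not passed. For Rnf2 in OE against 4OHT these were 0.068 (upper quartile), 0.077 (total counts), 0.012 (no filter) and 0.012 (length trend removed), with -0.057 to 0.029 when a library was left out, and for Jarid2 in MU against 4OHT the lowest and highest without a library were -0.004 and 0.102. Between MU and OE they were Ezh2 (-0.003 with DESeq2 size factors, -0.023 to 0.045 without a library), Ring1 (0.003 with total counts, 0.019 without the filter, -0.080 to 0.017 without a library), Suz12 (0.007), Cbx2 (0.005) and Pcgf6 (0.002), the last 3 without the filter.

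Counts called between MU and OE moved most. All genes gave 1565 in a fit of the 6 libraries and 1114 with DESeq2, and 400 (without the second MU library) to 1099 (without the third 4OHT library) when 1 was left out. The Polycomb genes gave 1 (Jarid2) in the fit of 6 libraries and 0 to 1 without a library. The partners gave 1 with total counts, 1 without the filter, 1 with counts divided by 4, 2 with the length trend removed, 6 in the fit of 6 libraries, 2 with DESeq2 and 0 to 1 without a library. Hox genes gave 1 in the fit of 6 libraries and 1 to 5 without a library. Other developmental regulators gave 2 with total counts, without the filter and in the fit of 6 libraries, 3 with DESeq2 and 0 to 2 without a library. The germline targets gave 0 without the filter, 3 in the fit of 6 libraries and 0 to 1 without a library. The cause was not tested.

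Libraries of the same number did not deviate together (Pearson r -0.020 to 0.044 over 22452 genes), so no pairing by number was visible. Whether libraries of the same number were made together is not stated. With a replicate block, 8 Polycomb genes were called in MU against 4OHT, with Rnf2 lower (-0.144, edgeR adjusted p = 0.022), and 12443, 12807 and 674 genes in MU against 4OHT, OE against 4OHT and MU against OE.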
